A study of Mus musculus with 8 samples.

Results

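The ubiquitin system was examined in hippocampal RNA from control and Jade2-knockout mice, as 21 transcripts of 19 loci. They were taken by gene symbol from a deposited list of 1679 transcripts. The symbols searched for were those of Ube, Ubr, Usp, Trim, Rnf, Fbx, Cul, Klhl, Herc, March and Otud genes, and 19 transcripts matched. The other 2 are merged transcript models without a symbol that share a locus with a match, 1 at Rnf41 and 1 at Otud5. No row carried a Ubr, Trim, Klhl, Herc or March symbol. The members are 11 transcripts of RING ligase genes, 1 of a U-box ligase, 2 of conjugating enzymes, 1 of a cullin, 3 of F-box proteins and 3 of deubiquitinase genes.

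The study sequenced whole hippocampus of 8-week-old C57BL/6 mice, with 4 libraries from wild-type controls and 4 from Jade2-knockout animals, and no treatment is named. The labels state neither how the Jade2 allele was made, nor the sex of the mice, nor whether each library came from its own animal. The p-values therefore measure the spread between libraries, which may be technical. Values are abundances per library, taken as FPKM (fragments scaled to transcript length and library size). The table is itself a selection. Every row passed the authors' thresholds on unadjusted p (0.05) and on the size of the log2 fold change (1), so being listed with a difference is no finding, and the direction of a member is a description.

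Ubiquitin is attached to proteins by a relay in which an activating enzyme hands it to a conjugating enzyme, and a ligase then brings that enzyme to the substrate. RING and U-box ligases hold both partners together, whereas cullins are scaffolds that carry a RING subunit at one end and exchangeable substrate adaptors, such as F-box proteins, at the other. Deubiquitinases remove the tag. In neurons the system sets the turnover of synaptic proteins, and Jade2, a PHD-finger protein, has itself been described as a ubiquitin ligase for the histone demethylase LSD1.

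The libraries were checked first by the targeted gene. The annotated Jade2 transcript ENSMUST00000109091 was listed at 0 in all 4 knockout libraries and averaged 2.94 ± 1.52 FPKM in the controls (SD, n = 4). The two-sided p was 0.0286 in an exact permutation test, which is as low as 70 assignments allow. Merged models of the Jade2 locus were present in the knockout libraries, MERGE.3721.1 at 8.00 ± 3.55 FPKM (SD, n = 4) against 0 in every control, and MERGE.3721.8 went the other way, from a mean of 8.09 FPKM in the controls to 0 in all knockouts but replicate 4, at 0.00225 FPKM. The listed Jade2 transcripts summed to 11 ± 5.28 FPKM in the controls and 14.2 ± 4.71 FPKM in the knockouts (SD, n = 4 per group), with overlap, so the summed level was not lower in the knockout. Read depth is unknown, as the table holds no counts, and the median listed abundance per library lay between 0.773 and 0.900 FPKM. Of 7 neuron markers only a Map2 transcript was listed, at 0.608 FPKM in the controls and 0.243 FPKM in the knockouts without overlap, and none of 6 astrocyte or 4 hippocampal subfield markers, so the tissue label cannot be checked from this list. Fewer cells of a type and less RNA per cell cannot be told apart in whole tissue. Transcripts of 3 of 6 endothelial and mural markers (Ly6c1, Tagln and Acta2) were listed, all higher in the knockout, with summed levels of 1.78 to 11.4 FPKM in the controls and 10.1 to 17.8 FPKM in the knockouts. Of 6 microglial markers 2 were listed, Lcp1 higher and Csf1r lower, with sums of 1.19 to 21.3 and 2.46 to 4.47 FPKM. Of 6 oligodendrocyte markers 2 were listed, in opposite directions and each without overlap. The 2 Plekhb1 transcripts had means of 18.4 and 2.69 FPKM in the controls and 43.1 and 8.23 FPKM in the knockouts, while Mag had means of 2.69 and 1.46 FPKM. The 3 transcripts summed to 18.3 to 29.4 FPKM in the controls and 39.0 to 77.4 FPKM in the knockouts, mostly through Plekhb1. The 1 listed transcript of 3 precursor markers, of Lhfpl3, was at 0.00839 to 0.0520 FPKM and 0.572 to 2.04 FPKM. Their part in the results below was not tested.

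The members are isoforms rather than whole genes. All 19 with an Ensembl identifier had identical coordinates in GENCODE M21 on GRCm38 (mm10). They comprised 8 protein-coding transcripts, 6 of the retained-intron type, 3 marked for nonsense-mediated decay and 2 processed transcripts without a coding sequence. Stretches that mark how some of them are spliced are printed here, from GENCODE M21 and 5′ to 3′ along the transcript, because a read can be told from those of the other annotated isoforms only where the sequences differ. In the first 6, lower case is the end of the upstream exon and capitals are the start of the downstream exon, across a splice junction that no other annotated transcript of the gene has.
Ube2d3-214, into its own exon: acaattatgggacctCTCAATGAAAGTGAG
Ube2d3-214, out of that exon: gtgatgaggataaagAATGACAGCCCATAT
Rnf13-210: tcccctgctcccatgGTGACTCGGACTCTG
Rnf41-204: gaggagccagtgcagGCAGGATCTCTATCA
Fbxl20-201: ctgccctcgacttagAATATTAGAAGTGGC
Usp45-206: ccgatgacattgctgGTCTAACGTGCCAGC
The last 2 are the donor ends of introns that the listed transcript keeps, with the exon in lower case and the intron in capitals. They show the retained intron, and that of Rnf123-205 does not set its reads apart, as none of its sequence is its own.
Rnf123-205: tcacaaatcctgcaaGTAAGTGGGCCCCAT
Otud5-208: tgcatggactatctgGTGAGATCCAAGGGA

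Such distinguishing sequence was scarce. The share of a transcript's 50-base words that occur in no other annotated transcript had a median of 6.96% over the 19 annotated members, and it was 0 for 5 of them, Rnf4-201, Rnf32-204, Rnf44-209, Rnf123-205 and Rnf214-211. It was highest for Rnf216-206 (87.1%), Fbxl20-201 (79.9%) and Cul4a-205 (65.5%). For 14 of the 19 it was under 15%. The abundances of those 14 therefore depend on how the authors' software divided shared reads among isoforms. Merged models and unspliced RNA were not compared, so words counted as a transcript's own may also occur in them.

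**Figure D1:**
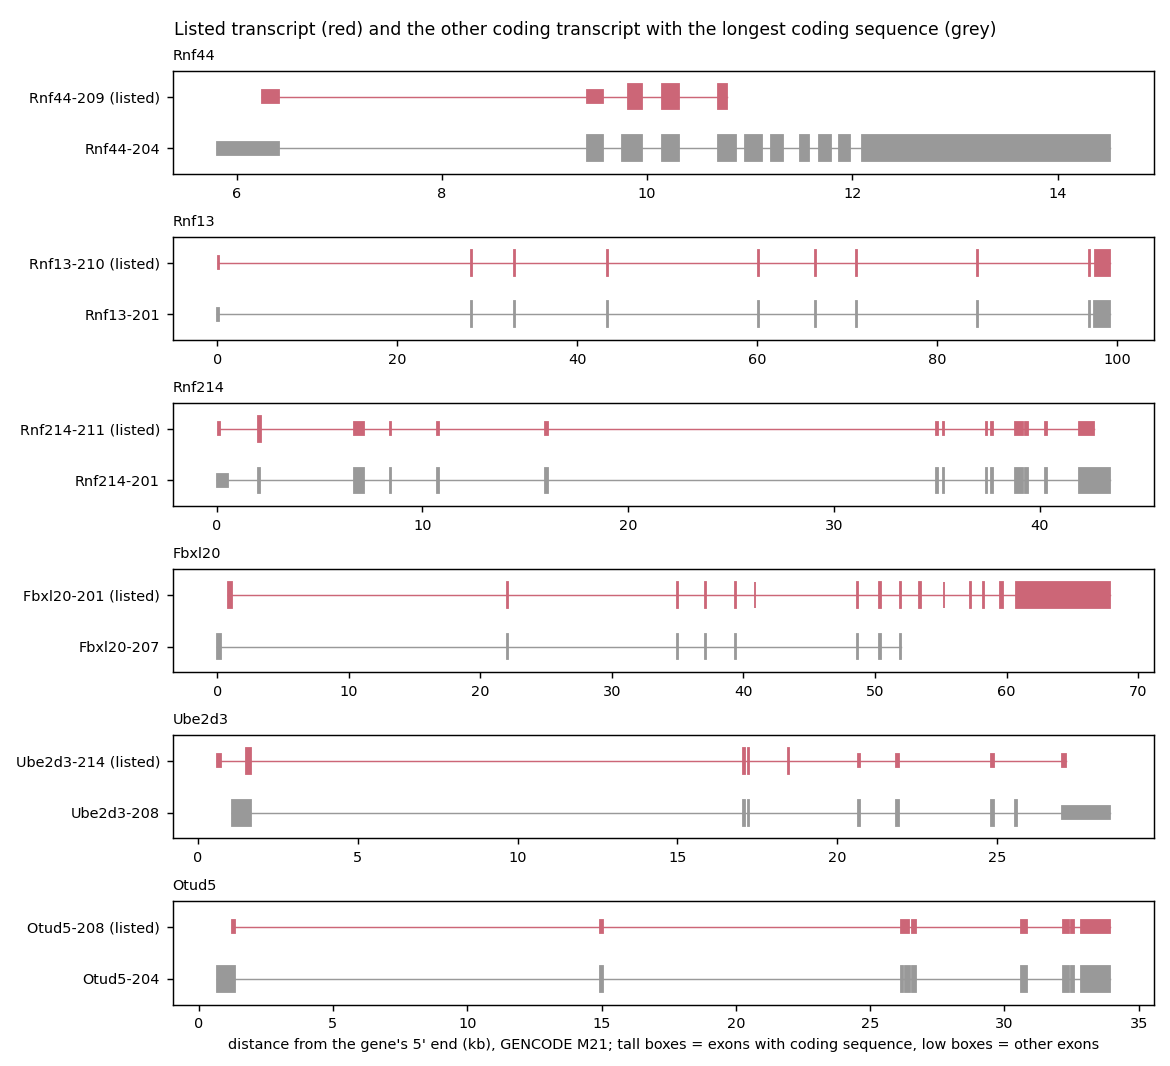
Exon maps of 6 listed transcripts (red) with the other coding transcript of the gene that has the longest coding sequence (grey), by distance from the gene's 5′ end in kb in GENCODE M21; tall boxes are exons that hold coding sequence. Rnf44-209 ends before the last exons of the gene, Rnf214-211 has coding sequence in 1 exon only, and Ube2d3-214 has an additional exon of 44 bases.

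No member passed the test for a difference between the groups. Each transcript with a mean of at least 1 FPKM was tested with limma on log2(FPKM + 0.5), a scale that understates the change of low transcripts, and p was adjusted over the 104721 transcripts that the authors' adjusted p-values imply. Of the 12 members tested, 0 had a limma adjusted p under 0.05, and every one had a limma adjusted p of 1. Among all 849 tested rows 0% passed. These rows included the annotated Jade2 transcript, which was at 0 in all 4 knockout libraries. The lack of a call therefore does not show that a member is unchanged. An unadjusted limma p under 0.05 was found for 4 of the 12 members, those of Rnf44, Rnf13, Rnf41 and Fbxl20, which is 33.3% against 70.6% of all tested listed transcripts, a share raised by the selection of the list. In the authors' deposited table all 21 have an adjusted p of 0.888, while 0.893% of its rows are under 0.05.

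In direction the members were split, 11 higher and 10 lower in the knockout, where 48.5% of the table was higher. The median difference of mean log2(FPKM + 0.5), knockout minus control, was 0.54 over the 21 members and -0.51 over the table. The sign of each median follows from the side that holds more rows. Rows with small fold changes were left out of the list, so a slight majority can move the median far from 0. The member median is the value of Rnf216-206, the smallest difference among the 11 higher members. These medians therefore repeat the split in direction and do not show a shift of the members against the table. The values of the groups did not overlap for 5 members (23.8%), those of Rnf13, Rnf25, Cul4a and Fbxw4 being higher in the knockout and that of Ube2d3 lower. Of all listed transcripts 36.1% did not overlap, 19.7% with every knockout above every control and 16.4% with the reverse. With each library left out in turn the count of such members was between 5 and 8, highest without knockout replicate 1. Leaving out a library can only keep or raise the count. The share of all listed transcripts was not counted for these settings.

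**Figure D2:**
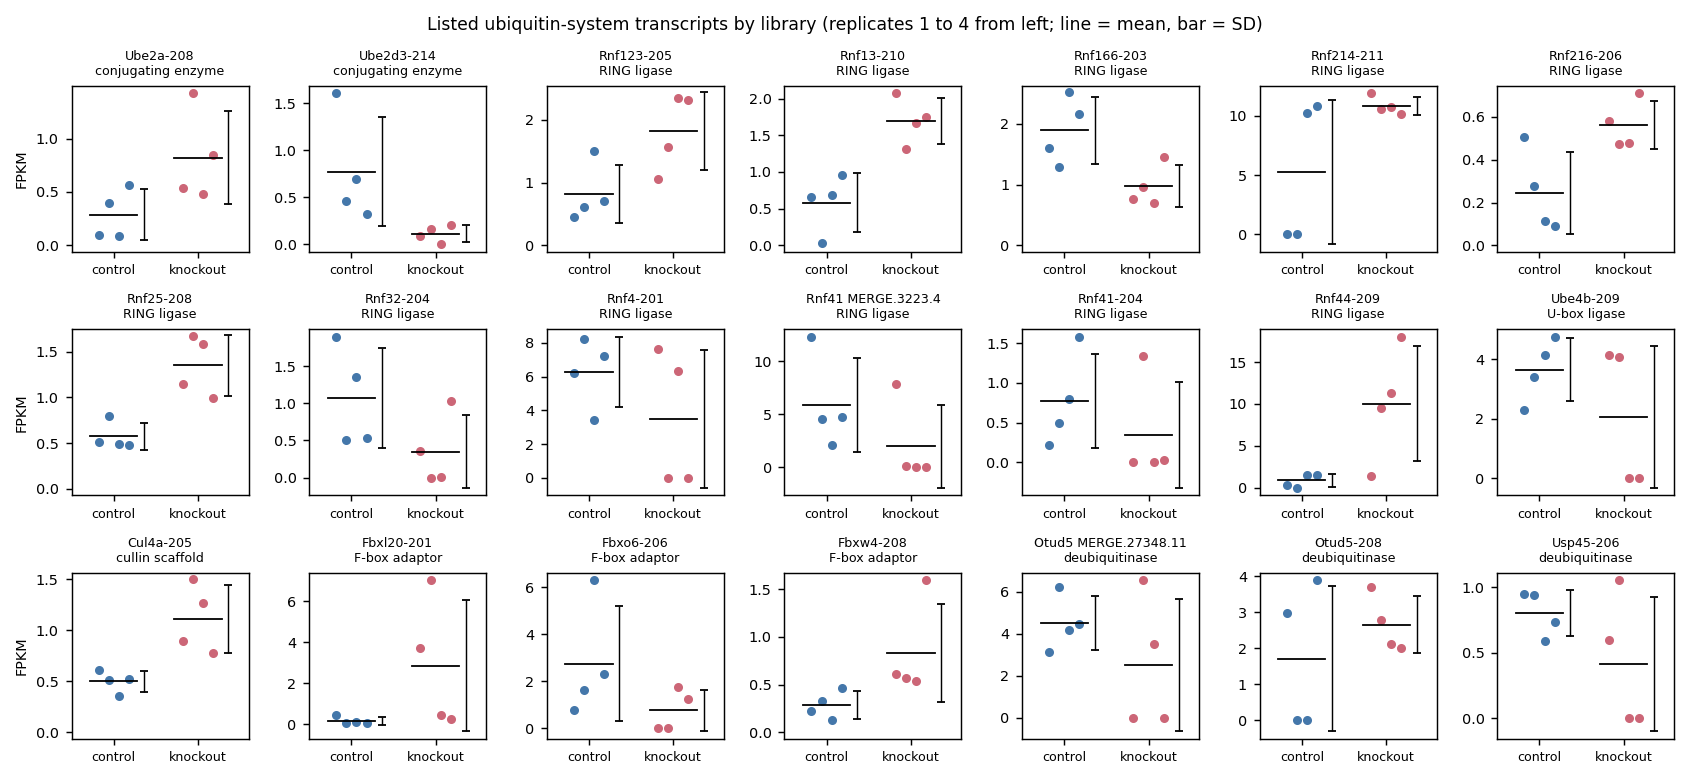
Abundance in FPKM of the 21 transcripts in each library, with controls in blue and knockouts in red, replicates 1 to 4 from left to right, the group mean as a line and its SD as a bar (n = 4 per group). For Rnf13, Rnf25, Cul4a and Fbxw4 all knockout points lie above all control points, for Ube2d3 they lie below, and several other panels have 2 libraries at 0.

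Of the conjugating enzymes, Ube2d3 and Ube2a each had 1 listed transcript, both with a mean under 1 FPKM and therefore not tested. Ube2d3, a UbcH5-family enzyme that works with many RING ligases, was listed as Ube2d3-214 (ENSMUST00000198748, chromosome 3, 135438754 to 135465297, plus strand). It stood at 1.61, 0.463, 0.698 and 0.320 FPKM in control replicates 1 to 4 and at 0.0881, 0.159, 0 and 0.206 FPKM in knockout replicates 1 to 4. Every knockout library was below every control, by 0.97 on the log2(FPKM + 0.5) scale (SE 0.317, n = 4 per group). The isoform holds the 44-base exon shown above, and its reading frame of 50 codons stops 289 bases before the last exon junction, against 148 codons for the longest form of the gene. It shares 37.3% of its 50-base words with 6 other annotated genes, so its level is uncertain.

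Ube2a encodes a RAD6-type conjugating enzyme that acts in DNA damage tolerance and histone H2B ubiquitination. Its coding transcript Ube2a-208 (ENSMUST00000202812, chromosome X, 36874653 to 36883386, plus strand) was at 0.0946, 0.394, 0.0909 and 0.570 FPKM in the controls and at 0.540, 1.43, 0.477 and 0.845 FPKM in the knockouts. Control replicate 4 lay within the knockout range and the other controls lay below it. The difference was 0.74 on the log2 scale (SE 0.310, n = 4 per group). This form has 119 codons and the longest has 152.

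The RING ligase genes gave 11 transcripts of 10 genes, 6 higher and 5 lower, of which 7 were tested and 3 had an unadjusted limma p under 0.05. Rnf44 had the largest difference of any member on the log2(FPKM + 0.5) scale, whereas with a pseudocount of 0.1 the Rnf41 model, at -3.79, exceeded Rnf44, at 3.61. Rnf44-209 (ENSMUST00000129881, chromosome 13, 54683128 to 54687654, minus strand) was at 0.370, 0, 1.57 and 1.54 FPKM in control replicates 1 to 4, and at 1.35, 9.52, 11.3 and 18 FPKM in knockout replicates 1 to 4. Knockout replicate 1 fell within the control range, and the other 3 knockouts were above every control. The difference was 2.78 on the log2 scale (SE 0.883, n = 4 per group), with an unadjusted p of 0.00384 and an adjusted p of 1 in limma. The annotation marks the 3′ end of this transcript as not found, and gives it 103 codons, against 432 in the longest form of the gene.

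Rnf13 encodes a RING ligase of endosomal and lysosomal membranes. Rnf13-210 (ENSMUST00000200497, chromosome 3, 57736082 to 57835233, plus strand) stood at 0.661, 0.0262, 0.686 and 0.962 FPKM in the controls. The knockout libraries were at 2.07, 1.31, 1.67 and 1.75 FPKM, all above the highest control. This is a mean of 1.70 ± 0.314 against 0.584 ± 0.396 FPKM (SD, n = 4 per group) and a difference of 1.11 on the log2 scale (SE 0.341, limma unadjusted p = 0.0209, adjusted p = 1). It was the only one of the 12 tested members whose groups did not overlap. The form has a complete frame of 352 codons, against 381 in the longest, and the junction shown above, within the coding sequence, joins a donor and an acceptor that other isoforms also use, in a pair that none of them has.

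Rnf41, also called Nrdp1, is a ligase for ErbB receptors and had 2 listed transcripts, both lower in the knockout. The merged model MERGE.3223.4 (chromosome 10, 128411746 to 128439417, plus strand) was at 12.3, 4.51, 2.08 and 4.70 FPKM in the controls and at 7.84, 0.107, 0 and 0 FPKM in the knockouts. Knockout replicate 1 was above 3 of the 4 controls, while the other knockouts were near 0. The difference was -2.35 on the log2 scale (SE 1.10, limma unadjusted p = 0.0238, adjusted p = 1). Without knockout replicate 1 it was -3.34 (limma unadjusted p = 0.000162), and without control replicate 1 or any 1 of the other knockouts the unadjusted limma p lay between 0.0713 and 0.0766.

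Rnf41-204 (ENSMUST00000218371, chromosome 10, 128415178 to 128439426, plus strand), marked for nonsense-mediated decay, was at 0.213, 0.499, 0.804 and 1.58 FPKM in the controls and at 0, 1.34, 0.0086 and 0.0254 FPKM in the knockouts. Here it was knockout replicate 2 that stood among the controls. The 2 transcripts summed to 12.5, 5.01, 2.88 and 6.28 FPKM in the controls and to 7.84, 1.45, 0.0086 and 0.0254 FPKM in the knockouts, a difference of -2.14 on the log2 scale (SE 1.04, n = 4 per group, limma unadjusted p = 0.0353, adjusted p = 1). The sums overlapped through knockout replicate 1 alone.

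Rnf214 is a RING-finger gene whose transcript Rnf214-211 (ENSMUST00000162699, chromosome 9, 45864299 to 45906861, minus strand) is marked for nonsense-mediated decay, with a frame of 36 codons that stops 1866 bases before the last junction. It was at 0 in control replicates 1 and 2 and at 10.2 and 10.8 FPKM in control replicates 3 and 4. The knockouts were at 11.9, 10.6, 10.7 and 10.1 FPKM. Where it was above 0, the control level was that of the knockout, at a mean of 10.5 against 10.8 FPKM, so the difference of 2.27 on the log2 scale (SE 1.29, limma unadjusted p = 0.0545, adjusted p = 1) lay in the 2 controls at 0. The annotation has the genes Bace1 and Pcsk7 overlapping this transcript.

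Rnf4, a ligase that recognises SUMO-modified proteins, had the reverse pattern. Rnf4-201 (ENSMUST00000030992, chromosome 5, 34336380 to 34353436, plus strand), with 194 codons the longest annotated coding form of its gene, was at 6.22, 8.25, 3.45 and 7.25 FPKM in the controls. It was at 7.63 and 6.34 FPKM in knockout replicates 1 and 3 and at 0 in knockout replicates 2 and 4. The knockout libraries above 0 averaged 6.99 FPKM, above the control mean of 6.29 FPKM. The log2 difference was -1.75 (SE 1.15, limma unadjusted p = 0.0916, adjusted p = 1).

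Rnf32-204 (ENSMUST00000160246, chromosome 5, 29196006 to 29225524, plus strand) codes for the longest annotated form of its gene. It was at 1.89, 0.509, 1.35 and 0.534 FPKM in the controls and at 0.363, 0, 0.00876 and 1.04 FPKM in the knockouts, with knockout replicate 4 inside the control range. It was not tested, and its log2 difference was -0.94 (SE 0.494, n = 4 per group). Rnf166-203 (ENSMUST00000148780, chromosome 8, 122468009 to 122475688, minus strand) is a noncoding transcript of another RING-finger gene. It stood at 1.61, 1.29, 2.53 and 2.16 FPKM in the controls and at 0.764, 0.962, 0.700 and 1.46 FPKM in the knockouts, and the groups overlapped only between knockout replicate 4 and control replicate 2. The log2 difference was -0.70 (SE 0.232, limma unadjusted p = 0.0729, adjusted p = 1).

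The other 3 RING ligase transcripts are of the annotated retained-intron type and were all listed higher. Rnf25-208 (ENSMUST00000149649, chromosome 1, 74594222 to 74594801, minus strand) was at 0.514, 0.797, 0.494 and 0.484 FPKM in the controls and at 1.15, 1.67, 1.59 and 0.990 FPKM in the knockouts, with no overlap. Rnf216 encodes the RING-between-RING ligase TRIAD3, known for targeting the neuronal protein Arc. Rnf216-206 (ENSMUST00000199044, chromosome 5, 143015373 to 143016774, minus strand) was at 0.504, 0.279, 0.112 and 0.0900 FPKM in the controls and at 0.583, 0.475, 0.479 and 0.713 FPKM in the knockouts, so that only control replicate 1 reached the knockout range. Rnf123 encodes KPC1, a ligase for the cell cycle inhibitor p27. Rnf123-205 (ENSMUST00000159523, chromosome 9, 108051693 to 108052230, minus strand) was at 0.458, 0.606, 1.5 and 0.708 FPKM in the controls and at 1.06, 1.56, 2.34 and 2.31 FPKM in the knockouts, with control replicate 3 in the knockout range (limma unadjusted p = 0.0553, adjusted p = 1). Of its 50-base words 96.0% also occur in Gmppb or Gm20529, which lie on the opposite strand, and the sources do not say whether counting used strand, so its reads cannot be told apart from theirs.

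The U-box ligase Ube4b, which extends ubiquitin chains, was listed as the noncoding transcript Ube4b-209 (ENSMUST00000172643, chromosome 4, 149385126 to 149426600, minus strand). It was at 2.28, 3.41, 4.14 and 4.75 FPKM in the controls, at 4.15 and 4.08 FPKM in knockout replicates 1 and 2, and at 0 in knockout replicates 3 and 4. The 2 knockouts above 0 lay among the controls. The log2 difference was -1.41 (SE 0.947, limma unadjusted p = 0.102, adjusted p = 1).

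The cullin Cul4a is the scaffold of ligases that use DDB1 and DCAF adaptors. Its retained-intron transcript Cul4a-205 (ENSMUST00000135371, chromosome 8, 13105740 to 13117195, plus strand) was at 0.610, 0.518, 0.358 and 0.519 FPKM in the controls and at 0.898, 1.51, 1.26 and 0.774 FPKM in the knockouts. All knockouts were above all controls, at 1.11 ± 0.336 against 0.501 ± 0.105 FPKM (SD, n = 4 per group), a difference of 0.67 on the log2 scale (SE 0.169). The mean was under 1 FPKM, so it was not tested. Of its 50-base words 17.3% also occur in other annotated genes, 94 in number.

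Of the F-box genes, Fbxl20 had the largest difference on the log2(FPKM + 0.5) scale. It encodes SCRAPPER, known for the ubiquitination of the presynaptic protein RIM1, and lies 46.2 Mb from Jade2 on the same chromosome. Fbxl20-201 (ENSMUST00000103143, chromosome 11, 98082556 to 98149612, minus strand) has 436 codons, the longest coding form of the gene. It was at 0.452, 0.0392, 0.0836 and 0.0293 FPKM in the controls and at 3.70, 7.02, 0.443 and 0.240 FPKM in the knockouts. Knockout replicates 1 and 2 were above every control, while replicates 3 and 4 lay below control replicate 1. The log2 difference was 1.78 (SE 0.839, limma unadjusted p = 0.0333, adjusted p = 1). With single libraries left out, the unadjusted limma p ran from 0.00840 without knockout replicate 4 to 0.0939 without knockout replicate 1, and without knockout replicate 2 the mean fell under 1 FPKM and no test was made.

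Fbxo6, which binds glycoproteins in endoplasmic reticulum quality control, was listed as Fbxo6-206 (ENSMUST00000134261, chromosome 4, 148146118 to 148151925, minus strand). It was at 0.754, 1.63, 6.30 and 2.31 FPKM in the controls and at 0, 0.0171, 1.76 and 1.25 FPKM in the knockouts. Knockout replicates 3 and 4 overlapped the controls. The log2 difference was -1.41 (SE 0.767, limma unadjusted p = 0.0552, adjusted p = 1). Fbxw4-208 (ENSMUST00000161556, chromosome 19, 45591461 to 45631139, minus strand), a retained-intron form of a WD-repeat F-box gene, was at 0.223, 0.332, 0.129 and 0.466 FPKM in the controls and at 0.614, 0.569, 0.540 and 1.6 FPKM in the knockouts. No values overlapped, and the log2 difference was 0.71 (SE 0.276, not tested).

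**Figure D3:**
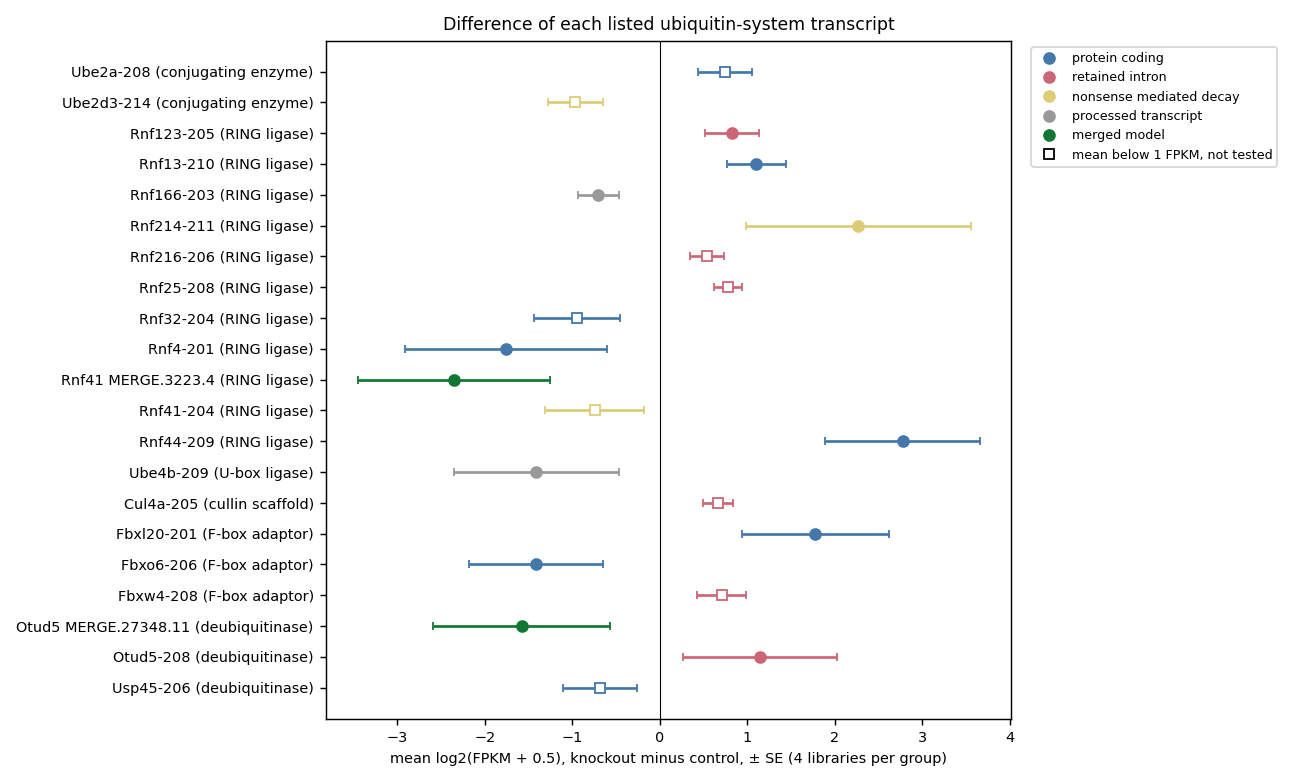
Difference of mean log2(FPKM + 0.5), knockout minus control, for the 21 transcripts by enzyme class, with bars for the SE (n = 4 per group), colour for the transcript type and open squares for means below 1 FPKM. Values run from -2.35 for the Rnf41 model to 2.78 for Rnf44-209, and all 6 retained-intron transcripts lie to the right of 0.

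The deubiquitinase genes gave 3 transcripts. Usp45, known for acting on the DNA repair factor ERCC1, was listed as Usp45-206 (ENSMUST00000148304, chromosome 4, 21776281 to 21798661, plus strand), a coding form without an annotated 3′ end. It was at 0.948, 0.940, 0.591 and 0.732 FPKM in the controls, at 0.593 and 1.05 FPKM in knockout replicates 1 and 2, and at 0 in knockout replicates 3 and 4. The knockouts above 0 averaged 0.822 FPKM and the controls 0.803 FPKM.

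Otud5, a deubiquitinase also called DUBA, had 2 listed transcripts in opposite directions. The retained-intron form Otud5-208 (ENSMUST00000150644, chromosome X, 7842605 to 7875284, plus strand) was at 2.97 and 3.89 FPKM in control replicates 1 and 4 and at 0 in control replicates 2 and 3. The knockouts stood at 3.72, 2.79, 2.12 and 2.01 FPKM. The merged model MERGE.27348.11 (chromosome X, 7842606 to 7883432, plus strand) was at 3.15, 6.22, 4.17 and 4.44 FPKM in the controls, at 6.53 and 3.53 FPKM in knockout replicates 2 and 3, and at 0 in knockout replicates 1 and 4. The log2 differences were 1.15 (SE 0.876, limma unadjusted p = 0.146) and -1.58 (SE 1.01, limma unadjusted p = 0.0876), each with an adjusted p of 1.

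Summed over the Otud5 locus, the 2 transcripts came to 6.12, 6.22, 4.17 and 8.33 FPKM in the controls and to 3.72, 9.32, 5.65 and 2.01 FPKM in the knockouts. The sums overlapped, and their log2 difference was -0.38 (SE 0.457, limma unadjusted p = 0.433, adjusted p = 1). The knockout range enclosed all 4 controls. In every library at least 1 of the 2 transcripts was above 0.

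**Figure D4:**
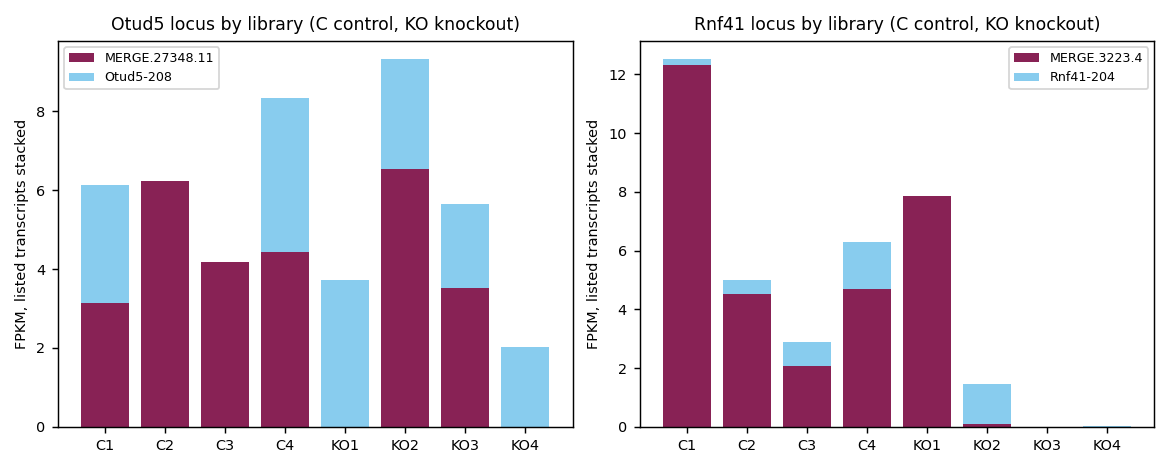
Abundance in FPKM of the 2 listed transcripts of Otud5 and of Rnf41, stacked by library (C1 to C4 control, KO1 to KO4 knockout). The Otud5 sums run from 2.01 to 9.32 FPKM in the knockouts and enclose the controls, and the Rnf41 sums are near 0 in knockout replicates 3 and 4.

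Taken per locus, 11 of the 19 had a mean sum of at least 1 FPKM. None had a limma adjusted p under 0.05, as for 0% of the 751 loci of the table, and 5 had an unadjusted limma p under 0.05, those of Rnf44, Rnf13, Rnf41, Fbxl20 and Rnf123, against 62.8% of the tested loci. For the 17 loci other than Otud5 and Rnf41 the sum is the single listed transcript, so these values do not give the total of the gene. This includes Rnf123, whose values were the same in both fits, with an unadjusted limma p of 0.0459 over loci and 0.0553 over transcripts.

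A value of 0 in at least 1 library was found for 12 of the 21 members, against 41.2% of the table. A pattern shared by 7 members was a value of 0 in 2 libraries of 1 group and in none of the other, which held for 20.4% of the table. They were Rnf4-201, Ube4b-209, Usp45-206 and the 2 merged models with knockouts at 0, and Rnf214-211 and Otud5-208 with controls at 0. Apart from the Rnf41 model, at 3.97 against 5.90 FPKM, the libraries above 0 had a mean close to or above that of the other group, as given for Rnf4, Rnf214 and Usp45. For Ube4b-209 these means were 4.11 against 3.64 FPKM, for Otud5-208 3.43 against 2.66 FPKM, and for the Otud5 model 5.03 against 4.49 FPKM. Knockout replicate 4 was at 0 in all 5 of the members with knockouts at 0, each time together with 1 of the other knockouts. Over all members knockout replicate 4 was at 0 for 5 and knockout replicate 3 for 4, while over the table these libraries were at 0 for 10.8% and 10.7% of transcripts, and the other libraries for 9.83% to 11.7%. In the 5 annotated members with this pattern at most 6.24% of 50-base words were their own, where the median of all 19 annotated members was 6.96%. Low shares were not particular to the pattern, as Rnf32-204, Rnf44-209 and Rnf123-205, without it, were at 0%. The part of read assignment between isoforms in these differences was not tested.

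The members of the retained-intron type in GENCODE were all on one side. Only Otud5-208 and Rnf123-205 hold a whole intron of another annotated transcript, while Cul4a-205, Fbxw4-208, Rnf216-206 and Rnf25-208 hold only parts of such introns. All 6, of Cul4a, Fbxw4, Otud5, Rnf123, Rnf216 and Rnf25, had higher means in the knockout, and 2 were tested with no call in limma. In 3 of the 6 every knockout was above every control. Over the whole list this held for 330 of the 815 transcripts that were higher in the knockout. The 6 members summed to 5.28, 2.53, 2.59 and 6.16 FPKM in the controls and to 8.02, 8.57, 8.33 and 8.40 FPKM in the knockouts. This is a mean of 4.14 ± 1.86 against 8.33 ± 0.230 FPKM (SD, n = 4 per group). In the control sums Otud5-208 stood at 2.97, 0, 0 and 3.89 FPKM. Its controls above 0 averaged more than its knockouts, at 3.43 against 2.66 FPKM. Among the 200 listed retained-intron transcripts that are not members, 117 (58.5%) were higher, against 48.5% of all rows, and their sums were 245 ± 25.1 FPKM in the controls and 299.7 ± 9.45 FPKM in the knockouts. These sums come from transcripts selected on the difference, so they are a description. The coding members were split evenly, 4 higher and 4 lower, and the 3 decay transcripts were 1 higher and 2 lower.

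**Figure D5:**
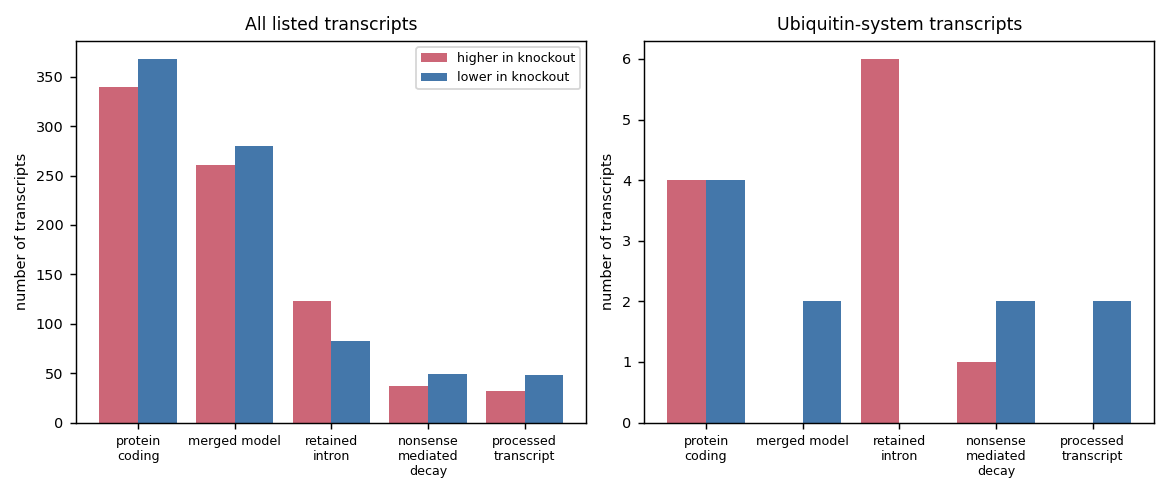
Number of transcripts higher (red) and lower (blue) in the knockout by GENCODE transcript type, for all listed transcripts on the left and for the ubiquitin-system transcripts on the right. Retained-intron transcripts number 123 higher and 83 lower in the table, and 6 higher and 0 lower among the members.

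Other parts of the ubiquitin and proteasome pathway were followed through 6 lists of genes outside the symbol rule. They held 22 listed transcripts, 8 higher and 14 lower. Of these 15 were tested, 0 had a limma adjusted p under 0.05, and 13 had an unadjusted limma p under 0.05 (86.7%, with 70.6% in the table). Other RING, RBR and U-box ligases had 3 higher and 4 lower. Cop1 ENSMUST00000192215, of a ligase for transcription factors such as c-Jun, stood at 0.444 ± 0.889 FPKM in the controls and 5.91 ± 2.70 FPKM in the knockouts (SD, n = 4 each), without overlap. Uhrf2 ENSMUST00000025739, of a chromatin-binding ligase, stood at 8.91 ± 1.44 FPKM in the controls and 4.48 ± 2.83 FPKM in the knockouts, with 1 knockout library in the control range.

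Cullin-RING and APC/C subunits had 3 higher and 6 lower. Dcaf11 ENSMUST00000152681, a decay isoform of a Cul4 substrate receptor, was at 1.55 ± 0.458 FPKM in controls and 4.75 ± 1.98 FPKM in knockouts, without overlap. The coding Dcaf11 transcript ENSMUST00000117236 went the other way, from a mean of 3.45 FPKM in controls to 1.34 FPKM in knockouts. Kctd17 ENSMUST00000159771, of a Cul3 adaptor, was at 9.26 ± 3.46 FPKM in controls and 3.43 ± 2.71 FPKM in knockouts (SD, n = 4 each), with 1 knockout library in the control range. The retained-intron transcripts of Dcaf7 and Kctd13 in this list were lower in the knockout, at 0.361 against 0.861 FPKM and 0.810 against 1.53 FPKM. The 6 members of that type were higher. So was the retained-intron transcript of Psmd5, from the list of the proteasome and its shuttles, at 0.652 against 0.284 FPKM without overlap.

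The proteasome and its shuttles had 2 higher and 2 lower. Psma3 ENSMUST00000071704, a decay isoform of a core subunit, was at 4.26 ± 0.593 FPKM in controls and 1.81 ± 0.329 FPKM in knockouts, and Psmb9 ENSMUST00000174576, of an immunoproteasome subunit, was at 0.293 ± 0.185 and 0.751 ± 0.165 FPKM (SD, n = 4 each). Neither had overlapping groups. Among activating enzymes and modifiers the 1 listed transcript, Sumo2 ENSMUST00000121185, was at 0 in all 4 knockouts and at 0, 0.163, 1.82 and 3.17 FPKM in the controls. The 1 listed transcript of the other deubiquitinases, Mindy3 ENSMUST00000194533, was at 2.83 ± 0.676 FPKM in controls and 1.03 ± 1.19 FPKM in knockouts, of which replicates 2 and 3 were at 0. No transcript of the other HECT ligases was listed.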

How the data were processed

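Hippocampal libraries, 4 control and 4 Jade2-knockout, grouped by their titles, were compared. Per the labels' protocols, Trizol-extracted RNA went into NEBNext Ultra libraries. The submitters' processing notes name HISAT2, Cuffdiff and mm10, without versions. Abundances were deposited by the authors without a named unit. The deposited abundances were treated as FPKM, since the authors used Cuffdiff per the submitters' processing notes. The authors also deposited log2 fold changes and p-values, by a test the sources do not name. From the deposited adjusted p-values, 104721 transcripts were tested, of which 1.60% are listed.

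Members were matched by symbol, and the members and gene lists were chosen with earlier results of these data known. Transcripts, and sums of listed transcripts per locus, averaging 1 FPKM or more entered a test on log2(FPKM + 0.5) with limma 3.58.1 in R 4.3.3 (variance trend, two-sided, fitted on the whole table). Benjamini-Hochberg adjustment was over 104721 transcripts, since the rows were preselected on p. The procedure was also run on simulated data with normal noise on the log scale, where rows were selected by limma's own p. The deposited rows were selected by the authors' test and often hold values of 0. The simulation therefore cannot show how the procedure behaves on them, and nothing is concluded from it. Annotation, isoform sequences and 50-base words come from GENCODE M21 on GRCm38, in which 1118 of 1679 listed transcripts had identical coordinates. SE values in the text come from the group spreads. Python 3.11.15, numpy 2.4.6, pandas 2.3.3 and matplotlib 3.10.9 were used for the rest. Transcripts named are all 21 members and, for each other ubiquitin list and direction, the one with the smallest authors' p. The second Dcaf11 transcript and the Dcaf7, Kctd13 and Psmd5 transcripts were chosen outside this rule, after their values were seen. Alternatives were other pseudocounts, filters, scaling, a replicate block, no variance trend and each library left out.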

Additional observations from a re-analysis of the deposited data

Results flagged for a closer look

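In 5 of 46 groups of 4 values (the 21 transcripts and the 2 locus sums, in each genotype), 1 library stood apart: its distance to the nearest other value exceeded Dixon's critical share of the spread from lowest to highest. For independent groups of normally distributed values, chance would give about 2.3 such groups. The 2 locus sums repeat values of their transcripts, and a normal distribution of the FPKM values was not checked. No excess over chance is therefore read from the 5. In control replicate 1 Fbxl20-201 reached 0.452 FPKM, with the other controls at most 0.0836 FPKM. Fbxw4-208 was at 1.6 FPKM in knockout replicate 4 and at 0.540 to 0.614 FPKM in the other knockouts. In control replicate 2 Rnf25-208 reached 0.797 FPKM, with the other controls between 0.484 and 0.514 FPKM. At the Rnf41 locus, MERGE.3223.4 was at 7.84 FPKM in knockout replicate 1 and at most 0.107 FPKM in the others, and Rnf41-204 was at 1.34 FPKM in knockout replicate 2 and at most 0.0254 FPKM in the others.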

How the results depend on the processing

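No member transcript and no member locus sum had a limma adjusted p under 0.05 under any of the alternatives run. Over the whole table, with 0 such transcripts as reported, limma gave 7 with no filter on low values and 1, 4 and 1 without control replicates 1, 2 and 4. The number of member transcripts with an unadjusted limma p under 0.05, 4 as reported, was 10 with no filter on low values, 1 with a mean of at least 5 FPKM and 7 with the replicate block, and between 4 and 6 with each library left out. For locus sums, 5 as reported, it was 12 with no filter, 1 with a mean of at least 5 FPKM, and between 3 and 6 with each library left out. With no filter all 21 members were tested, in place of the 12 as reported. The shares of all listed transcripts and loci were not counted at these settings. In the reported fit they were 70.6% and 62.8%. The count of members whose groups do not overlap, 5 as reported, was between 5 and 8 with each library left out. Leaving out a library cannot lower this count. Whether same-numbered libraries were paired is not known. Their deviations from the group means correlated at -0.033 to 0.041 over 849 transcripts, which does not settle it. The cause of these shifts was not tested, apart from the filters, which set how many members are tested. Over 333 alternative values for single transcripts and the 2 locus sums, 0 changed direction, and the 9 that moved beyond the spread were those of low transcripts at a pseudocount of 0.1. The annotated Jade2 transcript kept its direction throughout.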

Other observations

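The symbol rule does not reach merged models whose locus has no symbol. By position, with at least 50% reciprocal overlap on the same strand, 8 more models in the table lie on genes of the same families, 5 higher and 3 lower in the knockout. These were looked for after the values were seen. Of the 8, 7 were tested, 0 had a limma adjusted p under 0.05 and 6 had an unadjusted limma p under 0.05, as had 70.6% of all tested rows. The groups did not overlap for 3 of the 8, against 36.1% of all listed transcripts.

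The Fbxl19 model MERGE.23797.3, of an F-box gene that binds CpG islands, was at 1.04 ± 0.611 FPKM in controls and 4.32 ± 0.628 FPKM in knockouts, with no overlap (SD, n = 4 per group). The Cul5 model MERGE.26215.3, of a cullin scaffold, was at 3.06 ± 0.683 FPKM in controls and 1.12 ± 1.32 FPKM in knockouts, also with no overlap. Neither did the groups overlap for the Trim17 model MERGE.3841.2, of a neuronal RING ligase, at 2.07 ± 0.315 and 0.583 ± 0.545 FPKM in the same order (SD, n = 4 per group). The Usp16 model MERGE.10238.4, of a deubiquitinase for histone H2A, was at 0.930 ± 0.657 FPKM in controls and 2.18 ± 0.401 FPKM in knockouts. For Trim9 MERGE.5689.2, of a brain-enriched ligase, control replicates 2 and 3 were at 0 and the other 6 libraries lay between 9.22 and 11 FPKM. For Ubr2 MERGE.11117.4, of an N-degron ligase, the controls were at 0, 0, 12.3 and 1.86 FPKM and the knockouts between 4.59 and 14.1 FPKM, so that control replicate 3 lay in the knockout range. The Herc3 model MERGE.20756.4 was at 4.07, 19.4, 3.06 and 1.00 FPKM in the controls and at 17.4, 8.81, 17.3 and 17.8 FPKM in the knockouts, and the Rnf115 model MERGE.15961.1 averaged 1.28 FPKM in controls and 0.319 FPKM in knockouts.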
